A study of Mus musculus with 4 samples.

Results

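Distal intergenic peaks of open chromatin were followed in melb-a cells, an established mouse line of melanoblasts, the embryonic precursors of pigment cells. Peaks belonged to the class if the deposited annotation called them intergenic, if they lay over 10 kb and at most 100 kb from the nearest annotated transcription start site (TSS), and if they fell outside annotated repeats and CpG islands. The class held 13406 of the 70436 peaks in the table (19.0%) and 46.7% of the 28704 intergenic peaks. Of these, 8283 lay upstream and 5123 downstream of the nearest TSS, at a median distance of 31.8 kb. They were 139 to 3337 bases wide (median 523) and covered 7.77 Mb of the mm10 genome. The annotation assigned them to 6130 nearest genes, of which 2928 had 1 such peak and 556 had at least 5. The nearest gene was protein-coding for 10597 peaks and a noncoding RNA gene for 2634.

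The assay was ATAC-seq, which reads out open chromatin as the places where a transposase could cut DNA and attach adapters. The Hira arm held 2 libraries, each from wild-type melb-a cells carrying a different lentiviral short hairpin RNA (shRNA) against Hira, called hairpins I and II. The control arm held 2 libraries from the same line with a lentiviral hairpin against luciferase (control 1) or of scrambled sequence (control 2). All cells went through lentiviral infection and puromycin selection, and grew with stem cell factor and Fgf2 in the medium. Hira encodes a chaperone that places the histone variant H3.3 on chromatin outside DNA replication, and the comparison asked how its knockdown changed accessibility.

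Intergenic elements at such distances include many enhancers, stretches of DNA that bind transcription factors and can act on a promoter far away on the same chromosome. Active enhancers are depleted of stable nucleosomes, which makes them cuttable by a transposase, and they carry H3.3 that turns over quickly. Enhancers differ more between cell types than promoters do, and in melanoblasts many are bound by MITF, SOX10 and AP-1 factors. The gene nearest to a distal peak need not be the gene it acts on, so gene names below give position only.

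Tags in peaks numbered 14718721 and 8910983 under hairpins I and II, against 20716859.5 and 15804532 in controls 1 and 2. The median distal intergenic peak held 86 and 45 tags under hairpins I and II, against 103.5 and 78.5 tags in controls 1 and 2. Levels are given as CPM, tags per 1000000 tags of TMM-corrected library size. The spread between the Hira libraries was 6.24 in chi-square per peak, against 0.935 between the controls, so the controls differed from each other by less than sampling noise. They were counted as 1 sample in the n of the design. The main fit nevertheless entered them as 2 libraries, so its p-values lean on a pair with almost no spread. Each library had its own hairpin and no hairpin was repeated, so p-values measure only the spread between these libraries. No RNA was measured, so the knockdown itself was not checked here. Of 8 melanoblast genes (Mitf, Sox10, Pax3, Kit, Tyr, Tyrp1, Dct and Pmel), 5 had a promoter peak, summing to 156 and 168 CPM under hairpins I and II, against 175 and 167 CPM in controls 1 and 2. No peak was assigned to Pmel, which encodes a structural protein of the melanosome.

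Sequence can be shown for distal peaks that contain a whole RefSeq promoter window, the 300 bases from 250 before to 50 after a RefSeq start. There were 156 such windows, mostly at starts of long noncoding RNAs that the deposited annotation, built on curated transcripts, did not use. Windows are given here for 4 peaks that passed edgeR's quasi-likelihood test at an adjusted p under 0.05 (called peaks) with large changes, chosen to show windows with and without matches to known motifs. They are RefSeq sequence of GRCm38.p6 (the assembly of mm10), 5′ to 3′ on the strand of the gene. Capitals mark every match on either strand to the core E-box bound by MITF (CACATG or CATGTG), AP-1 (TGANTCA), TEAD (GGAATG or CATTCC), RUNX (TGTGGT or ACCACA) or SOX factors (ACAAAG or CTTTGT). The window of the long noncoding RNA gene Gm32861, chr7:110288349-110288648 (minus strand), lies in a peak 67.0 kb from the TSS of Swap70. The window of Gm44507, chr7:98415566-98415865 (minus strand), lies in a peak 24.7 kb from the TSS of Gucy2d. Both peaks were higher under the Hira hairpins.
Gm32861: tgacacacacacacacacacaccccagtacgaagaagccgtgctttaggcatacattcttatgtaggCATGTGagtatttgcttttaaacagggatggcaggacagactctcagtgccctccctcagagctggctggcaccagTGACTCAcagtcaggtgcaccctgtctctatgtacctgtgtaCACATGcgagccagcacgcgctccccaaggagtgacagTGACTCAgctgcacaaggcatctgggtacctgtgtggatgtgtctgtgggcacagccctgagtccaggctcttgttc
Gm44507: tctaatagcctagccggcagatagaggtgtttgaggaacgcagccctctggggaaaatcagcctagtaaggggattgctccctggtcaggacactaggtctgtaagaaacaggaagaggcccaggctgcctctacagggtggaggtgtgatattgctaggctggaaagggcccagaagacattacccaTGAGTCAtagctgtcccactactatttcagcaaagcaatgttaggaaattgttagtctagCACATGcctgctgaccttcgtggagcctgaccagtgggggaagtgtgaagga
The next pair came from peaks that were lower, that of Gm41109 at chr14:24429805-24430104 (minus strand), 57.0 kb from the TSS of Polr3a, and that of LOC108167682 at chr9:104547041-104547340 (plus strand), 19.4 kb from the TSS of Cpne4.
Gm41109: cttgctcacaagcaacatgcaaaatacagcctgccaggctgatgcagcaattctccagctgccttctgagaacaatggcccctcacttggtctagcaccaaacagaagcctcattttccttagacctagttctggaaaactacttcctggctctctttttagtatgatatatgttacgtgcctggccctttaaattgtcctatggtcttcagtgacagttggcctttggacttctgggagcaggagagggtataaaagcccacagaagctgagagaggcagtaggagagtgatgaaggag
LOC108167682: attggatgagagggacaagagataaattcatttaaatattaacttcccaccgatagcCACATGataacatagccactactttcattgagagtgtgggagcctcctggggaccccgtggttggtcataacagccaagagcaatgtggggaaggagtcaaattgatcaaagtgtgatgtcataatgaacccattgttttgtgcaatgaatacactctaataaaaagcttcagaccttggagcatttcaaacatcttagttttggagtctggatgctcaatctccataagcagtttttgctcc

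The peak around the Gm32861 window stood at 27.1 and 10.4 CPM under hairpins I and II, against 2.99 and 3.11 CPM in controls 1 and 2. Its log2 fold change was 2.64 with an SE of 0.47, adjusted p = 0.0176 by edgeR. That of Gm44507 stood at 9.41 and 3.99 CPM under hairpins I and II, against 0.885 and 1.35 CPM in controls 1 and 2 (log2 fold change 2.63 with an SE of 0.50, adjusted p = 0.0199 by edgeR). In both, the Hira libraries lay above both controls, and hairpin I lay further from them than hairpin II. The peak around the Gm41109 window stood at 0.815 and 0.855 CPM under hairpins I and II, against 4.12 and 3.96 CPM in controls 1 and 2 (log2 fold change −2.23 with an SE of 0.27, adjusted p = 0.0125 by edgeR), and that of LOC108167682 at 0.951 and 2.39 CPM under hairpins I and II, against 5.22 and 6.06 CPM in controls 1 and 2 (log2 fold change −1.84 with an SE of 0.42, adjusted p = 0.0309 by edgeR). In both, each Hira library lay below each control. The Gm32861 window held 2 MITF-type E-boxes and 2 AP-1 matches, and that of Gm44507 1 of each. That of LOC108167682 held 1 E-box, and that of Gm41109 no match to the letters searched. Of windows not printed, that of Gm35546 lay in a rising peak (log2 fold change 2.57) and that of Gm39683 in a falling one (−1.93). Neither held a match, so the printed windows do not show how matches go with direction.

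Under the Hira hairpins, accessibility of distal intergenic peaks moved in both directions, and more peaks rose than fell. In edgeR's quasi-likelihood test over all peaks of the table, 2207 of 13405 tested distal intergenic peaks were higher (16.5%) and 1464 lower (10.9%) at an adjusted p under 0.05. Over all 70429 tested peaks, 25.3% were called, 14.4% higher and 11.0% lower, so the share of lower calls was that of the background and the share of higher calls lay little above it. The share called was 26.3% in 4252 intergenic peaks within 10 kb of a TSS (711 higher, 407 lower) and 33.4% in 4551 beyond 100 kb (749 higher, 771 lower). Promoter peaks were called least often of these classes, at 6.98% of 7588, with 358 higher (4.72%) and 172 lower (2.27%). The log2 fold changes of distal intergenic peaks had a median of 0.05 and an SD of 0.96, against 0.0019 and 0.93 over all peaks.

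Among the called peaks, the median log2 fold change was 1.48 for higher and −1.30 for lower peaks, and 1634 and 1085 of them passed 2-fold. Fitted values ran as far as 4.26 and −3.99. All 3671 called peaks had both Hira libraries on the same side of both controls, which the choice of called peaks in a fit of 2 against 2 libraries favours. Called or not, both Hira libraries lay above both controls at 5000 peaks of the class and below both at 4341. The same counts over all peaks of the table were not made, so these are not read as a trait of the class. Hairpin I lay further from the controls at 2993 of the called peaks (81.5%), with a median log2 ratio of 1.58 for higher peaks, against 1.09 under hairpin II, and of −1.35 for lower peaks, against −1.05. Over all peaks of the table the log2 ratios of hairpin I also spread more, with an SD of 1.04 against 0.73 for hairpin II. Without any test, both hairpins were at least 2-fold from the summed controls in the same direction at 1199 higher and 734 lower peaks, 14.4% of the class. Over all peaks this held for 13.4%, with 7.91% higher and 5.47% lower. Taken alone, hairpin I passed 2-fold at 2182 peaks upward and 1768 downward, and hairpin II at 1300 and 1046, with 5 peaks past 2-fold in opposite directions. Over all 70436 peaks the counts were 9906 and 9275 for hairpin I and 6031 and 5455 for hairpin II, with 15 in opposite directions. Both hairpins were set against the same controls, so these counts share their baseline.

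How many peaks passed depended on the treatment of the controls. With the controls counted as 1 sample the same edgeR test called 0 distal intergenic peaks, with a smallest adjusted p of 0.0704 and 3229 peaks under 0.05 before adjustment. On the same samples the newer quasi-likelihood estimate in edgeR called 1297 higher and 752 lower, and its likelihood ratio test 1140 and 616. Over all peaks that newer estimate called 14.1%, with 8.46% higher and 5.68% lower. Leaving out either control library also left 0 calls, while 3073 higher and 2506 lower passed without hairpin I, and 4658 and 3692 without hairpin II. Of the 3671 peaks called in the 4-library fit, 2013 also passed with the same sign under the newer estimate with the controls as 1 sample. The balance depended on scaling: 60.1% of called distal intergenic peaks were higher here, and 39.8% under the library scaling recovered from the authors' fold changes. That scaling moved the median of all peaks by over 0.1 log2, to −0.26, and that of distal intergenic peaks to −0.22, so each direction is given relative to the bulk of the table. The authors' deposited table itself calls 1306 of the distal intergenic peaks higher and 1583 lower. It calls 20.2% of all peaks, 8.48% higher and 11.8% lower. Of its calls in the class, 2462 passed here with the same sign and 0 with the other sign.

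As a share of all tags in peaks, the class took 13.7% and 13.2% under hairpins I and II, against 12.9% in each control. Both Hira libraries lay above both controls, by a mean of 0.541 percentage points, and by 0.281 with hairpin I left out or 0.800 with hairpin II left out. The exact permutation test over the 4 libraries gave p = 0.333 (two-sided), the smallest p this design allows.

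Within the class, the share of lower peaks was larger far from the TSS, while that of higher peaks showed no such order. No test of a trend was made. At 10 to 20 kb from the TSS 15.5% of tested peaks were higher and 9.17% lower. At 40 to 50 kb the shares were 18.0% and 12.1%, and at 80 to 90 kb 16.6% and 15.0%. The share of lower peaks was 16.9% beyond 100 kb, the class next in distance. At the inner edge of the class, 65 of 409 peaks were higher and 46 lower at 10 to 11 kb, and 84 and 35 of 434 just outside, at 9 to 10 kb. At the outer edge 38 were higher and 40 lower of 258 at 95 to 100 kb, and 33 and 35 of 239 just outside, at 100 to 105 kb. Peaks upstream of the TSS (16.5% higher, 11.3% lower) and downstream of it (16.4% and 10.3%) had similar shares. Depth moved with distance as well: the median peak held 92 tags under hairpin I and 108.5 in control 1 at 10 to 20 kb, and 70.25 and 87.75 tags at 90 to 100 kb. Its part in the shares was not tested.

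**Figure D1:**
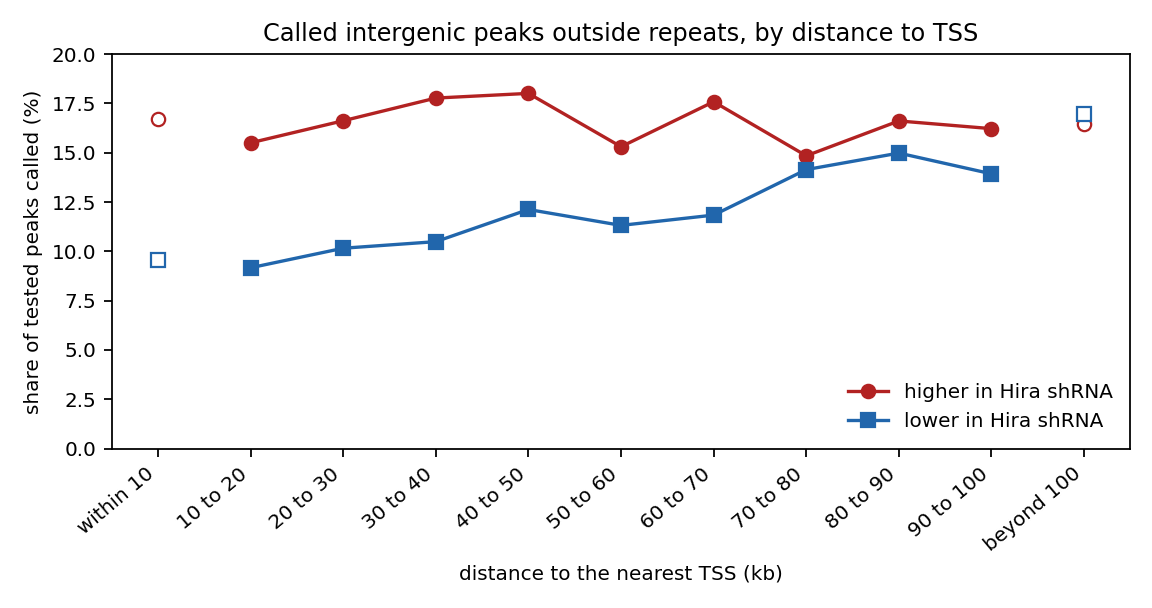
Share of tested intergenic peaks outside repeats that were called higher (red circles) or lower (blue squares) in Hira shRNA libraries than in controls (y axis, percent), by distance to the nearest TSS in 10 kb bins (x axis). Filled points are the class described here, open points the peaks within 10 kb and beyond 100 kb; lower calls go from 9.17% in the 10 to 20 kb bin to 15.0% in the 80 to 90 kb bin, while higher calls stay between 14.8% and 18.0%.

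Higher calls were more common among wide peaks, again without a test. In the narrowest 25% of peaks (up to 354 bases) 11.6% of peaks were higher and 12.7% lower, and in the widest 25% (729 bases or more) 20.3% were higher and 9.77% lower. Depth moved with width: the median narrow peak held 33.5 tags under hairpin I and 47.5 in control 1. The median wide peak held 242 and 303.5 tags, and the part of depth in these shares was not tested. By mean level, 14.3% were higher and 13.9% lower in the lowest 25%, below 2.89 CPM, and 19.2% and 10.7% in the highest 25%, above 11.1 CPM. Large changes went the other way: both hairpins passed 2-fold at 21.5% of the peaks in the lowest of these groups and at 5.64% in the highest. A peak of the lowest group held a median of 29.5 and 15.5 tags under hairpins I and II, against 41 and 31.5 tags in the controls, so folds there rest on few tags.

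**Figure D2:**
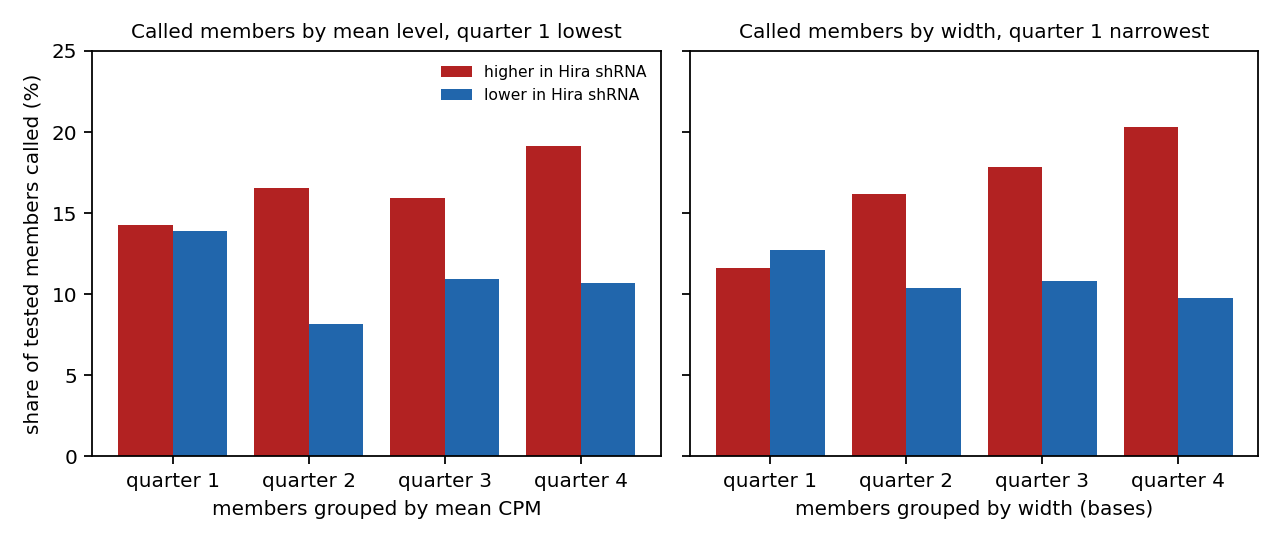
Share of tested distal intergenic peaks called higher (red) or lower (blue) in Hira shRNA libraries (y axis, percent), for 4 equal groups of the class by mean CPM (left) and by width in bases (right). Higher calls are 11.6% in the narrowest group and 20.3% in the widest; lower calls are 12.7% and 9.77%.

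The largest gains were taken among peaks at or above the median level over the 4 libraries, so these peaks passed that filter through their level under the Hira hairpins. Near Slc38a2, which encodes a neutral amino acid transporter, the peak 74.0 kb upstream of the TSS (chromosome 15, 96773526 to 96773961) stood at 16.7 and 8.78 CPM under hairpins I and II, against 1.01 and 1.19 CPM in controls 1 and 2. It rose 11.8-fold (log2 fold change 3.56 with an SE of 0.39, adjusted p = 0.0125 by edgeR). The peak 17.4 kb upstream of Itpkb, an inositol trisphosphate kinase, stood at 15.4 and 5.42 CPM under hairpins I and II, against 0.933 and 1.00 CPM in controls 1 and 2 (log2 fold change 3.43 with an SE of 0.56, adjusted p = 0.015 by edgeR). In these peaks the 2 arms did not overlap, which was a condition for choosing them, and hairpin I was the higher of the Hira libraries. The peak 62.6 kb upstream of Zfp469, a zinc finger gene, stood at 20.1 and 9.75 CPM under hairpins I and II, against 1.32 and 1.51 CPM in controls 1 and 2 (log2 fold change 3.41 with an SE of 0.41, adjusted p = 0.0125 by edgeR). Near Enah, which encodes an actin regulator of the Ena/VASP family, the peak 38.3 kb upstream stood at 17.6 and 5.87 CPM under hairpins I and II, against 0.909 and 1.54 CPM in controls 1 and 2 (log2 fold change 3.34 with an SE of 0.60, adjusted p = 0.018 by edgeR).

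The peak 60.6 kb upstream of Pdgfc, a platelet-derived growth factor, stood at 17.2 and 7.18 CPM under hairpins I and II, against 1.22 and 1.22 CPM in controls 1 and 2 (log2 fold change 3.3 with an SE of 0.48, adjusted p = 0.0133 by edgeR). The peak 10.4 kb downstream of the TSS of Cryaa, a lens crystallin, stood at 14.8 and 13.8 CPM under hairpins I and II, against 1.36 and 1.66 CPM in controls 1 and 2 (log2 fold change 3.27 with an SE of 0.21, adjusted p = 0.0125 by edgeR), and here the hairpins gave nearly the same level. The peak 86.4 kb upstream of Ptprk, a receptor tyrosine phosphatase, reached the highest level of the 10, at 41.1 and 22.4 CPM under hairpins I and II, against 4.16 and 3.05 CPM in controls 1 and 2 (log2 fold change 3.14 with an SE of 0.35, adjusted p = 0.0125 by edgeR). The other 3 of the 10 largest gains lay near Lrrc8d, a subunit of volume-regulated anion channels, Atf7ip, a cofactor of the H3K9 methyltransferase SETDB1, and Fam3c, a secreted factor, with log2 fold changes of 3.3, 3.24 and 3.19. Promoter peaks were present in the table for 2 of these 10 genes, Lrrc8d (log2 fold change 0.27, edgeR adjusted p = 0.229) and Fam3c (0.02, adjusted p = 0.890), and neither passed. All 10 gains also passed with the controls as 1 sample under the newer estimate.

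The same filter admitted strongly falling peaks through their level in the controls. The peak 62.6 kb downstream of the TSS of Sst, which encodes the peptide hormone somatostatin, stood at 2.21 and 1.25 CPM under hairpins I and II, against 15.9 and 16.1 CPM in controls 1 and 2. It fell 8.90-fold (log2 fold change −3.15 with an SE of 0.26, adjusted p = 0.0125 by edgeR). The peak 16.2 kb upstream of Raly, an RNA-binding protein gene next to the agouti pigmentation locus, stood at 0.578 and 2.34 CPM under hairpins I and II, against 9.55 and 10.3 CPM in controls 1 and 2 (log2 fold change −2.96 with an SE of 0.53, adjusted p = 0.0177 by edgeR). Here hairpin I gave the lower level, and the SE is the largest of the 10 losses. The peak 33.3 kb upstream of Epc2, a subunit gene of the NuA4 acetyltransferase complex, stood at 1.70 and 2.28 CPM under hairpins I and II, against 12.8 and 13.3 CPM in controls 1 and 2 (log2 fold change −2.74 with an SE of 0.22, adjusted p = 0.0125 by edgeR). The peak 32.2 kb downstream of the TSS of Slc15a4, a lysosomal peptide and histidine transporter, stood at 1.33 and 3.42 CPM under hairpins I and II, against 13.5 and 15.3 CPM in controls 1 and 2 (log2 fold change −2.68 with an SE of 0.39, adjusted p = 0.0133 by edgeR).

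Near Dmrt1i, a noncoding RNA gene, the peak 61.8 kb from the TSS stood at 3.67 and 3.99 CPM under hairpins I and II, against 22.2 and 21.6 CPM in controls 1 and 2 (log2 fold change −2.52 with an SE of 0.16, adjusted p = 0.0125 by edgeR), with the hairpins close to each other. The peak 51.3 kb from Tex36 had the highest control level of the 10, standing at 4.72 and 5.76 CPM under hairpins I and II, against 25.8 and 24.5 CPM in controls 1 and 2 (log2 fold change −2.28 with an SE of 0.16, adjusted p = 0.0125 by edgeR). The peak 54.7 kb downstream of the TSS of Myb, a transcription factor gene, stood at 1.46 and 3.48 CPM under hairpins I and II, against 11.4 and 9.76 CPM in controls 1 and 2 (log2 fold change −2.18 with an SE of 0.38, adjusted p = 0.0166 by edgeR). The remaining losses lay near Bet1, a vesicle trafficking gene, Nol11, a gene of ribosomal RNA production, and B3galt1, a galactosyltransferase gene, with log2 fold changes of −2.43, −2.33 and −2.23. In all 10 both Hira libraries lay below both controls, which was a condition for choosing them. All 10 passed with the controls as 1 sample under the newer estimate. Promoter peaks of Epc2 (0.23), Slc15a4 (−0.19), Bet1 (−0.05) and Myb (0.15) gave the log2 fold changes in brackets, and none passed.

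**Figure D3:**
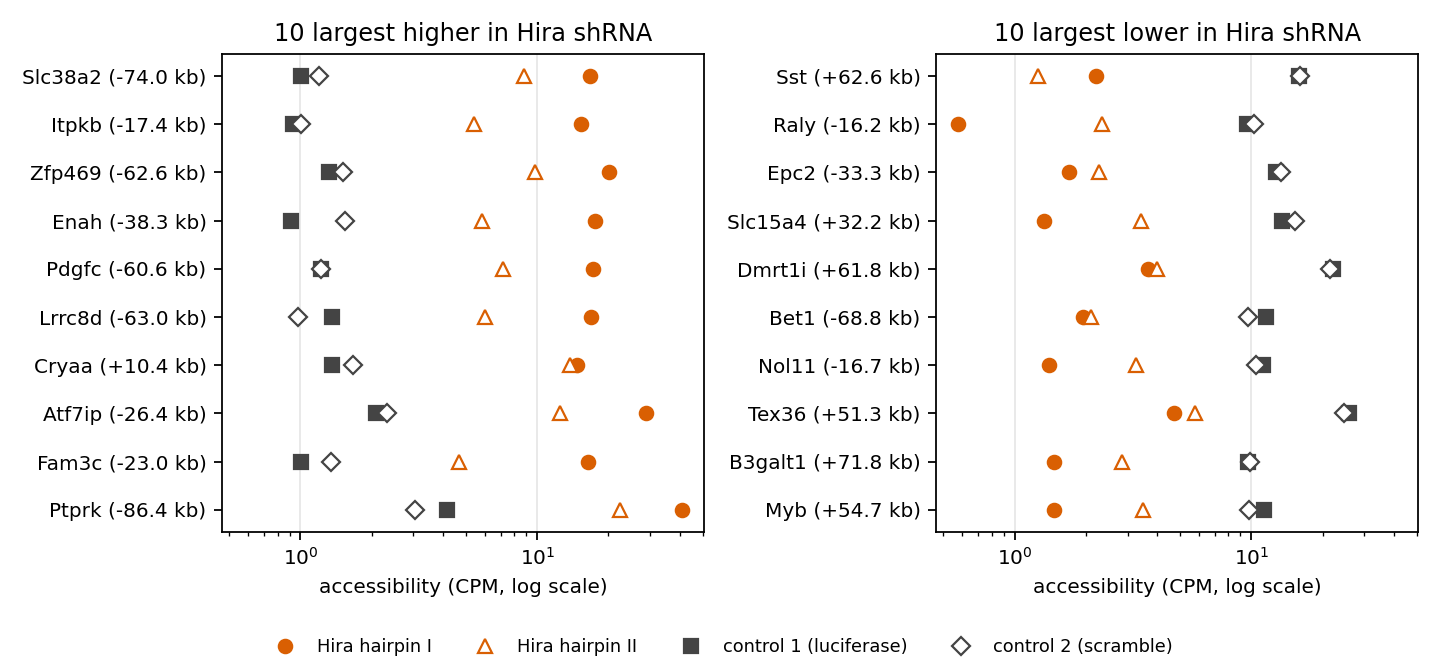
Accessibility in CPM (x axis, log scale) in each library at the 10 distal intergenic peaks with the largest rise (left) and the largest fall (right) in Hira shRNA, labelled by nearest gene and distance to its TSS. Orange circles and triangles are hairpins I and II, black squares and diamonds controls 1 and 2. No Hira point overlaps a control point of the same peak, which the choice of these peaks required. The Slc38a2 peak stands at 16.7 and 8.78 CPM under the hairpins against 1.01 and 1.19 CPM in the controls.

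The 5 distal intergenic peaks with the highest control levels had log2 fold changes from 0.00 to 0.62, and none reached 2-fold. Across the class, the median size of the log2 fold change, without its sign, was 0.47. The peaks near Slc6a6 and Gm10941 lay above that median, and those near Olfr1423, Parp16 and Zfp239 below it. The peak 25.8 kb from Olfr1423, an olfactory receptor gene, stood at 203 and 203 CPM under hairpins I and II, against 173 and 170.1 CPM in controls 1 and 2 (log2 fold change 0.24 with an SE of 0.05, adjusted p = 0.0274 by edgeR). The peak 64.3 kb upstream of Slc6a6, the taurine transporter gene, stood at 221 and 228 CPM under hairpins I and II, against 158 and 164 CPM in controls 1 and 2 (log2 fold change 0.48 with an SE of 0.06, adjusted p = 0.0125 by edgeR). The peak near the noncoding RNA gene Gm10941 stood at 239 and 249 CPM under hairpins I and II, against 155 and 163 CPM in controls 1 and 2 and rose 1.53-fold (log2 fold change 0.62 with an SE of 0.06, adjusted p = 0.0125 by edgeR). Near Parp16, an ADP-ribosyltransferase gene of the endoplasmic reticulum, the log2 fold change was 0.16 (SE 0.06, edgeR adjusted p = 0.0925), with 183 and 175 CPM under hairpins I and II, against 158 and 161 CPM in controls 1 and 2. Near Zfp239, another zinc finger gene, it was 0.00 (adjusted p = 0.974), with 146 and 156 CPM under hairpins I and II, against 150.0 and 152 CPM in controls 1 and 2. Under the authors' scaling Olfr1423, Slc6a6 and Gm10941 no longer passed, and Olfr1423, Parp16 and Zfp239 were at −0.01, −0.09 and −0.25. Olfr1423 also did not pass with the controls as 1 sample under the newer estimate (adjusted p = 0.146) or in DESeq2's Wald test (0.243).

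Of 449 genes in 21 lists on the lineage, signalling and other cell types, 216 were the nearest gene of 600 distal intergenic peaks. List counts below stand beside the 16.5% higher and 10.9% lower of the whole class, and no test of any list was made. The pair of counts in each bracket gives the rises and falls called with the controls as 1 sample under the newer estimate, which called 9.68% higher and 5.61% lower over the class. Around genes of pigment synthesis and the melanosome, 6 of 27 tested peaks fell and 1 rose (median log2 fold change −0.38, 1 and 2 with 1 control sample). Slc24a5 encodes a melanosomal cation exchanger, and 2 of its 3 peaks fell. The peak 77.7 kb upstream of it stood at 0.646 and 0.513 CPM under hairpins I and II, against 4.26 and 4.90 CPM in controls 1 and 2 (log2 fold change −2.93 with an SE of 0.32, adjusted p = 0.0125 by edgeR). This fold rests on 9.5 and 4.5 tags under hairpins I and II. Tyrp1, which encodes a melanosomal enzyme of eumelanin synthesis and was named after its values were seen, had 2 falling peaks of 7. Of these, the peak 36.6 kb upstream of Tyrp1 stood at 6.08 and 9.24 CPM under hairpins I and II, against 14.9 and 15.2 CPM in controls 1 and 2 (log2 fold change −1.0 with an SE of 0.23, adjusted p = 0.0297 by edgeR). The peak 15.2 kb upstream of Gpnmb, a melanosomal glycoprotein gene, stood at 35.2 and 30.2 CPM under hairpins I and II, against 48.5 and 49.6 CPM in controls 1 and 2 (log2 fold change −0.58 with an SE of 0.10, adjusted p = 0.0165 by edgeR). The rising peak lay 13.1 kb upstream of Slc7a11, the cystine transporter gene mutated in subtle gray mice, and stood at 5.64 and 2.85 CPM under hairpins I and II, against 0.766 and 0.910 CPM in controls 1 and 2 (log2 fold change 2.41 with an SE of 0.41, adjusted p = 0.0164 by edgeR). Of these calls, 4 of the 6 falls, among them those of the Gpnmb peak and the Tyrp1 peak 36.6 kb upstream, were lost with the controls as 1 sample under the newer estimate.

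Around genes of melanoblast specification and survival, 1 of 47 peaks rose and 6 fell (median −0.04, 0 and 4 with 1 control sample). Kit, the receptor for stem cell factor that melanoblasts need to migrate and survive, had 3 falling and 1 rising peak of 6. The peak 87.1 kb downstream of the Kit TSS stood at 0.883 and 1.08 CPM under hairpins I and II, against 3.66 and 3.3 CPM in controls 1 and 2 (log2 fold change −1.80 with an SE of 0.28, adjusted p = 0.0145 by edgeR), and the one 82.9 kb downstream at 4.18 and 5.99 CPM under hairpins I and II, against 11.6 and 11.8 CPM in controls 1 and 2 (log2 fold change −1.23 with an SE of 0.22, adjusted p = 0.0176 by edgeR). The Kit peak that rose, 89.2 kb upstream, stood at 5.81 and 4.33 CPM under hairpins I and II, against 2.51 and 2.67 CPM in controls 1 and 2 (log2 fold change 1.01 with an SE of 0.26, adjusted p = 0.0406 by edgeR). This rise was lost under the authors' scaling (adjusted p = 0.081), with the replicate block (0.051), in DESeq2's Wald test (0.160) and with the controls as 1 sample under the newer estimate (0.127). Mitf, the master regulator of the lineage and the list gene with the most peaks here, had 11 distal intergenic peaks, and none passed in edgeR's quasi-likelihood test (smallest adjusted p 0.0778). The most open Mitf peak, 55.1 kb from the assigned TSS, stood at 48.4 and 65.2 CPM under hairpins I and II, against 76.7 and 75.0 CPM in controls 1 and 2 (log2 fold change −0.43, SE 0.14).

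Around neural crest progenitor genes 11 of 42 peaks rose and 3 fell (median 0.31, 10 and 1 with 1 control sample). The peak 14.4 kb upstream of Id2, an inhibitor of differentiation, stood at 35.2 and 30.8 CPM under hairpins I and II, against 9.48 and 9.01 CPM in controls 1 and 2 and rose 3.57-fold (log2 fold change 1.83 with an SE of 0.13, adjusted p = 0.0125 by edgeR). The peak 11.9 kb from the TSS of Nes, which encodes the progenitor filament nestin, stood at 51.9 and 49.1 CPM under hairpins I and II, against 25.7 and 25.5 CPM in controls 1 and 2 (log2 fold change 0.98 with an SE of 0.08, adjusted p = 0.0125 by edgeR). All 3 falling peaks were near Mycn, a proto-oncogene of progenitors, which had 1 rising peak too. The Mycn peak 65.3 kb from the TSS stood at 1.83 and 3.31 CPM under hairpins I and II, against 6.65 and 8.35 CPM in controls 1 and 2 (log2 fold change −1.59 with an SE of 0.33, adjusted p = 0.0244 by edgeR), and the one 71.8 kb away at 7.51 and 9.01 CPM under hairpins I and II, against 14.0 and 14.8 CPM in controls 1 and 2 (log2 fold change −0.82 with an SE of 0.17, adjusted p = 0.0239 by edgeR). The second of these was lost with the controls as 1 sample under the newer estimate (adjusted p = 0.098). Snai1, an inducer of epithelial to mesenchymal transition, had 3 rising peaks of 4, and Id3 2 of 2. Both were named after their values were seen. Around Schwann cell and glia genes 2 of 23 peaks rose and 5 fell (median −0.55, 1 and 4 with 1 control sample). Both peaks of Fabp7, a fatty acid binding protein of glia, fell. The one 29.7 kb upstream stood at 1.12 and 2.11 CPM under hairpins I and II, against 8.66 and 6.28 CPM in controls 1 and 2 (log2 fold change −2.32 with an SE of 0.37, adjusted p = 0.0147 by edgeR). The peak 13.5 kb upstream of Pmp22, a myelin protein gene, stood at 70.9 and 68.6 CPM under hairpins I and II, against 40.4 and 39.0 CPM in controls 1 and 2 (log2 fold change 0.81 with an SE of 0.07, adjusted p = 0.0125 by edgeR), and its call was lost under the authors' scaling (adjusted p = 0.099). The other rise, near the cadherin gene Cdh19 (1.20), was lost with the controls as 1 sample under the newer estimate (0.084) and in DESeq2's Wald test (0.138).

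Around extracellular matrix and migration genes 19 of 67 peaks rose and 4 fell (median 0.26, 16 and 1 with 1 control sample). Tnc, which encodes the matrix glycoprotein tenascin C, had 5 rising peaks of 8. The Tnc peak 31.3 kb upstream stood at 18.6 and 14.3 CPM under hairpins I and II, against 4.45 and 3.99 CPM in controls 1 and 2 (log2 fold change 1.96 with an SE of 0.20, adjusted p = 0.0125 by edgeR). The peak 27.8 kb upstream of Col5a1, a collagen gene, stood at 53.9 and 55.5 CPM under hairpins I and II, against 29.0 and 29.2 CPM in controls 1 and 2 (log2 fold change 0.91 with an SE of 0.08, adjusted p = 0.0125 by edgeR). A peak of another collagen gene, 36.5 kb upstream of Col1a2, stood at 0.272 and 0.342 CPM under hairpins I and II, against 3.88 and 3.70 CPM in controls 1 and 2 and had the largest fall among the named peaks, 12.4-fold (log2 fold change −3.63 with an SE of 0.33, adjusted p = 0.0125 by edgeR). Hairpins I and II held only 4 and 3 tags there, so the size of this fold is uncertain. The falling peak near Vcan, the gene of the proteoglycan versican, was at −1.47 and was lost with the controls as 1 sample under the newer estimate (adjusted p = 0.055) and in DESeq2's Wald test (0.106). Values for fibroblast markers stand beside this list. Promoter peaks of 4 of 15 fibroblast marker genes summed to 54.2 and 38.6 CPM under hairpins I and II, against 29.1 and 27.0 CPM in controls 1 and 2. Only 1 of these 4 promoter peaks was called higher, and 0 lower. Of 21 distal intergenic peaks of fibroblast marker genes, 4 rose and 1 fell (19.0% and 4.76%). Their part in the result was not tested, and in bulk libraries a change in the share of cells of a type and a change per cell cannot be told apart.

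Around TGF-beta signalling genes 8 of 22 peaks rose and 1 fell (median 0.35, 5 and 1 with 1 control sample). The peak 46.2 kb upstream of the ligand gene Bmp4 stood at 7.95 and 5.87 CPM under hairpins I and II, against 2.03 and 1.79 CPM in controls 1 and 2 (log2 fold change 1.88 with an SE of 0.26, adjusted p = 0.0129 by edgeR). The falling peak was near the ligand gene Bmp7 (−1.0, adjusted p = 0.0493) and was lost with the controls as 1 sample under the newer estimate (0.081). Around Notch genes 7 of 28 rose and 1 fell (median 0.22, 3 and 0 with 1 control sample), and 5 of the 7 were near Rbpj, the DNA-binding effector of the pathway. The Rbpj peak 74.3 kb upstream stood at 7.30 and 3.42 CPM under hairpins I and II, against 0.981 and 1.00 CPM in controls 1 and 2 (log2 fold change 2.49 with an SE of 0.43, adjusted p = 0.0171 by edgeR). The peak 35.4 kb upstream of Nrarp, a feedback inhibitor of Notch, stood at 10.1 and 4.79 CPM under hairpins I and II, against 0.957 and 0.565 CPM in controls 1 and 2 (log2 fold change 3.27 with an SE of 0.48, adjusted p = 0.0136 by edgeR). The peak that fell, near the coactivator gene Maml3 (−1.45), was lost with the controls as 1 sample under the newer estimate (0.058) and in DESeq2's Wald test (0.080).

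Around RUNX, TEAD and YAP genes 8 of 25 peaks rose and 1 fell (median 0.14, 4 and 0 with 1 control sample). Runx3 had 3 rising peaks of 8, of which the one 52.7 kb from the TSS stood at 9.78 and 8.27 CPM under hairpins I and II, against 3.09 and 3.55 CPM in controls 1 and 2 (log2 fold change 1.46 with an SE of 0.22, adjusted p = 0.0138 by edgeR). The peak 14.5 kb upstream of Yap1, the coactivator of the Hippo pathway, stood at 2.89 and 2.00 CPM under hairpins I and II, against 0.407 and 0.439 CPM in controls 1 and 2 (log2 fold change 2.60 with an SE of 0.34, adjusted p = 0.0125 by edgeR). This fold rests on 8.5 and 7 tags in controls 1 and 2. Ankrd1, a target gene of YAP, moved in both directions. Its peak 47.3 kb upstream stood at 5.57 and 7.18 CPM under hairpins I and II, against 12.6 and 13.9 CPM in controls 1 and 2 (log2 fold change −1.07 with an SE of 0.20, adjusted p = 0.0183 by edgeR), while its promoter peak rose by a log2 fold change of 4.21 (edgeR adjusted p = 0.013). The distal loss did not pass with the controls as 1 sample under the newer estimate (0.057). Around Wnt genes 5 of 45 rose and 6 fell (median 0.02, 3 and 2 with 1 control sample). All 5 rises were near the ligand genes Wnt4 and Wnt7b, and the falls were near the receptor genes Fzd1, Fzd7 and Lgr5, the inhibitor gene Nkd1 and the effector gene Tcf7l2. The Wnt4 peak 39.0 kb from the TSS stood at 14.9 and 12.5 CPM under hairpins I and II, against 4.59 and 3.86 CPM in controls 1 and 2 (log2 fold change 1.69 with an SE of 0.20, adjusted p = 0.0125 by edgeR), and the Nkd1 peak 38.8 kb upstream at 2.21 and 2.91 CPM under hairpins I and II, against 8.78 and 8.85 CPM in controls 1 and 2 (log2 fold change −1.81 with an SE of 0.24, adjusted p = 0.0126 by edgeR). The Wnt7b peak 29.5 kb upstream stood at 97.8 and 100.2 CPM under hairpins I and II, against 69.1 and 70.4 CPM in controls 1 and 2, and its rise of 0.51 was lost under the authors' scaling (adjusted p = 0.493).

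Around feedback genes of the MAP kinase pathway 19 of 60 peaks rose and 7 fell (median 0.22, 8 and 2 with 1 control sample). Dusp4 and Dusp10 encode phosphatases that switch MAP kinases off. The Dusp4 peak 54.4 kb upstream stood at 4.25 and 2.68 CPM under hairpins I and II, against 0.191 and 0.188 CPM in controls 1 and 2 (log2 fold change 4.17 with an SE of 0.41, adjusted p = 0.0125 by edgeR), the largest rise among the named distal peaks. Controls 1 and 2 held only 4 and 3 tags there, so the size of this fold is uncertain. Another Dusp4 peak, 20.6 kb upstream, fell, standing at 1.36 and 1.88 CPM under hairpins I and II, against 4.83 and 4.58 CPM in controls 1 and 2 (log2 fold change −1.59 with an SE of 0.27, adjusted p = 0.016 by edgeR). Dusp10 had 4 rising peaks of 5, and the one 94.2 kb from the TSS stood at 6.66 and 3.25 CPM under hairpins I and II, against 0.503 and 0.565 CPM in controls 1 and 2 (log2 fold change 3.27 with an SE of 0.47, adjusted p = 0.0131 by edgeR). Near Fgfr1, the receptor for the Fgf2 in the medium, 2 of 7 rose and 1 fell. The falling one stood at 0.476 and 1.03 CPM under hairpins I and II, against 2.68 and 2.51 CPM in controls 1 and 2 (log2 fold change −1.89 with an SE of 0.38, adjusted p = 0.0217 by edgeR) and was lost in DESeq2's Wald test (0.082). Around AP-1 and immediate early genes 4 of 38 peaks rose and 2 fell (median 0.06, 3 and 1 with 1 control sample). The peak 23.9 kb from the TSS of Fos stood at 19.5 and 10.7 CPM under hairpins I and II, against 2.39 and 2.70 CPM in controls 1 and 2 (log2 fold change 2.59 with an SE of 0.34, adjusted p = 0.0125 by edgeR). The peak 92.3 kb upstream of Jun fell (−1.03) and was lost with the controls as 1 sample under the newer estimate (0.077). The peak 23.3 kb upstream of Klf2, a factor induced by shear stress, stood at 21.4 and 26.6 CPM under hairpins I and II, against 39.9 and 43.7 CPM in controls 1 and 2 (log2 fold change −0.81 with an SE of 0.13, adjusted p = 0.015 by edgeR).

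Around inflammatory and NF-kappaB genes 18 of 56 peaks rose and 6 fell (median 0.27, 11 and 4 with 1 control sample). The peak 30.9 kb upstream of Tnfaip3, which encodes the feedback inhibitor A20 of NF-kappaB, stood at 33.0 and 21.6 CPM under hairpins I and II, against 5.79 and 4.96 CPM in controls 1 and 2 (log2 fold change 2.35 with an SE of 0.24, adjusted p = 0.0125 by edgeR). Lif, the gene of a secreted cytokine, had 5 rising peaks of 7 and was named after its values were seen. Among the chemokine genes, the peak 15.0 kb upstream of Cxcl1 stood at 31.6 and 32.8 CPM under hairpins I and II, against 16.6 and 17 CPM in controls 1 and 2 (log2 fold change 0.94 with an SE of 0.10, adjusted p = 0.0125 by edgeR), while that 17.1 kb upstream of Cxcl5 stood at 8.56 and 10.4 CPM under hairpins I and II, against 21.9 and 20.3 CPM in controls 1 and 2 (log2 fold change −1.16 with an SE of 0.16, adjusted p = 0.0127 by edgeR). The peak 19.5 kb from Nfkbiz, an atypical inhibitor of NF-kappaB, fell (−1.89), while its promoter peak rose (0.37, edgeR adjusted p = 0.046). Around cell cycle and replication genes 6 of 25 rose and 1 fell (median 0.16, 5 and 1 with 1 control sample), with 4 of the 6 near Ccnd1, the cyclin D1 gene. The Ccnd1 peak 24.2 kb upstream stood at 5.23 and 4.11 CPM under hairpins I and II, against 0.861 and 1.00 CPM in controls 1 and 2 (log2 fold change 2.34 with an SE of 0.28, adjusted p = 0.0125 by edgeR), and the falling one, 80.6 kb upstream, at 1.02 and 1.08 CPM under hairpins I and II, against 4.36 and 5.02 CPM in controls 1 and 2 (log2 fold change −2.12 with an SE of 0.27, adjusted p = 0.0125 by edgeR). Around p53 targets and cell cycle inhibitors 2 of 23 rose and 2 fell (median 0.09, 1 and 1 with 1 control sample). Of these, Plk2 (1.45) and Ddit4 (−0.98) were lost with the controls as 1 sample under the newer estimate (0.052 and 0.133) and in DESeq2's Wald test (0.222 and 0.203), and Phlda3 (0.86) under the authors' scaling (0.069). The falling peak near Perp, a membrane protein gene induced by p53, stood at 16.3 and 19.4 CPM under hairpins I and II, against 29.9 and 31.8 CPM in controls 1 and 2 (log2 fold change −0.80 with an SE of 0.13, adjusted p = 0.0148 by edgeR). Of 17 genes of the HIRA complex and H3.3, only H3f3a, an H3.3 gene, was the nearest gene of such a peak. It stood at 3.60 and 2.22 CPM under hairpins I and II, against 1.24 and 1.35 CPM in controls 1 and 2 (log2 fold change 1.20 with an SE of 0.31, adjusted p = 0.0421 by edgeR), a call lost without hairpin I (0.097), in DESeq2's Wald test (0.235) and with the controls as 1 sample under the newer estimate (0.096).

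Lists of genes marking other cell types had few distal intergenic peaks. Endothelial genes had 5 rises and 1 fall in 18 peaks, 4 of the rises near Flt1, a receptor for vascular endothelial growth factors. The Flt1 peak 10.9 kb upstream stood at 33.8 and 15.7 CPM under hairpins I and II, against 4.47 and 4.27 CPM in controls 1 and 2 (log2 fold change 2.51 with an SE of 0.38, adjusted p = 0.014 by edgeR). Promoter peaks of 3 of 15 endothelial genes summed to 19.8 and 10.1 CPM under hairpins I and II, against 8.50 and 8.63 CPM in the controls. Only 1 of these 3 promoter peaks was called higher, and 0 lower. Keratinocyte genes had 0 promoter peaks for 15 genes, and 1 of 6 distal peaks rose, 68.0 kb upstream of Trp63. Promoter peaks of 3 immune genes summed to 47.7 and 49.6 CPM under hairpins I and II, against 41.8 and 43.0 CPM in controls 1 and 2, and those of 2 neuron genes to 20.9 and 19.7 CPM, against 15.1 and 14.8 CPM. In the immune and in the neuron list, 1 promoter peak each was called higher and 0 lower. Muscle genes had 2 rises in 9 peaks (Tnnt2 and Gata4), immune genes 1 in 5 (Gata3), and neuron genes 0 rises and 2 falls in 12, both near Neurod1 and both lost in DESeq2's Wald test (0.094 and 0.121). The peak 21.4 kb from Tnnt2, a heart troponin gene, stood at 21.3 and 9.52 CPM under hairpins I and II, against 3.35 and 3.99 CPM in controls 1 and 2 (log2 fold change 2.10 with an SE of 0.40, adjusted p = 0.0203 by edgeR). Calls at Trp63 and Gata4 were lost under the authors' scaling (adjusted p = 0.117 and 0.058), with the controls as 1 sample under the newer estimate (0.101 and 0.098) and in DESeq2's Wald test (0.065 and 0.262).

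**Figure D4:**
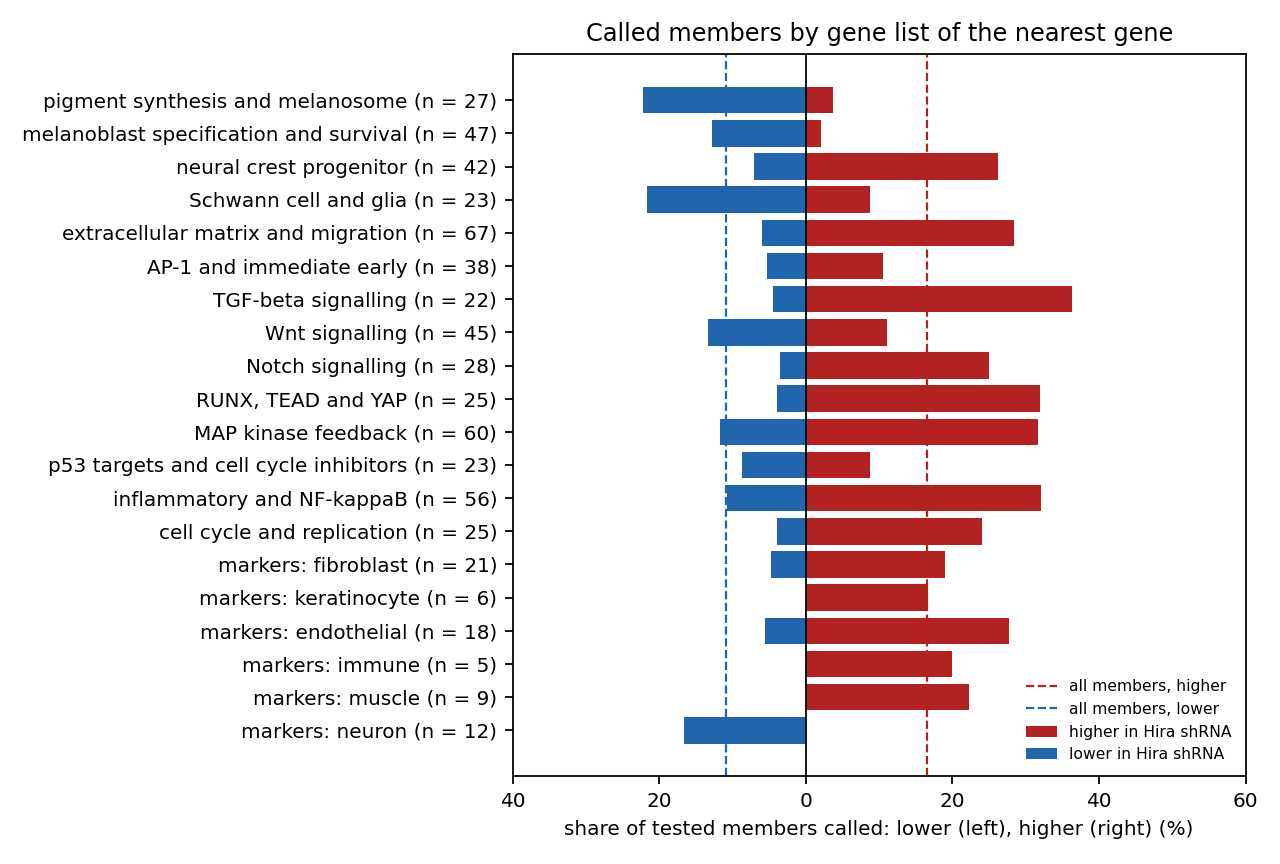
Share of tested distal intergenic peaks called higher (red, right of 0) or lower (blue, left of 0) in Hira shRNA (x axis, percent), for each gene list of the nearest gene with at least 5 peaks (y axis, n is the number of peaks). Dashed lines mark the whole class (16.5% higher, 10.9% lower); the pigment list has 3.70% higher and 22.2% lower, and the TGF-beta list 36.4% higher and 4.55% lower.

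Calls were also counted per nearest gene, without a test. Of the 6130 nearest genes, 2583 had at least 1 called peak, 1356 of them only higher ones, 915 only lower ones and 312 both. Among 710 genes with at least 2 called peaks, 278 had only higher and 120 only lower ones. Among 238 with at least 3, 75 had only higher and 17 only lower ones. Since 60.1% of called peaks in the class were higher, more genes with only higher than only lower calls would arise from that share too. The numbers it alone would give were not worked out. Among the genes with the most distal intergenic peaks were C130026L21Rik and Sik1 with 18 each, Kcna5 with 17 and A330074K22Rik with 14. Sik1 encodes a salt-inducible kinase that restrains CREB target genes. It had 3 higher and 1 lower peaks. Kcna5, a potassium channel gene, had 3 higher and 0 lower. A330074K22Rik had 0 of either (edgeR's quasi-likelihood test in all cases).

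The noncoding RNA gene C130026L21Rik had the most rising peaks, 9 of 18, and no falling one. They lay on both sides of its TSS on chromosome 5, from 50.3 kb upstream to 85.0 kb downstream. The strongest of them, at 111535938 to 111536531, stood at 12.2 and 8.04 CPM under hairpins I and II, against 1.48 and 1.70 CPM in controls 1 and 2 (log2 fold change 2.68 with an SE of 0.30, adjusted p = 0.0125 by edgeR). A wide peak between 2 of them, 26.9 kb upstream, stood at 37.8 and 37.2 CPM under hairpins I and II, against 38.6 and 37.9 CPM in controls 1 and 2 (log2 fold change −0.03, SE 0.08). Rybp, which encodes a subunit of Polycomb complex PRC1, had 6 rising peaks of 9. The Rybp peak 91.1 kb from the TSS stood at 30.1 and 20.2 CPM under hairpins I and II, against 7.61 and 6.47 CPM in controls 1 and 2 (log2 fold change 1.84 with an SE of 0.23, adjusted p = 0.0125 by edgeR). Sgk1, a serum and glucocorticoid induced kinase gene, had 6 rising peaks of 10, all of them 42.6 to 91.8 kb upstream. The Sgk1 peak 80.4 kb upstream stood at 29.6 and 13.9 CPM under hairpins I and II, against 2.82 and 2.70 CPM in controls 1 and 2 (log2 fold change 2.99 with an SE of 0.39, adjusted p = 0.0126 by edgeR). None of the 3 Sgk1 peaks on the other side passed, with log2 fold changes of −0.07, −0.11 and 0.53.

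The genes with the most falling peaks were Gm20187, 5430403N17Rik and Fgg, with 5, 5 and 4 of the 1464 in the class. Other genes also had 4, and Fgg came first among them by the share of its peaks that fell. All 5 peaks of the noncoding RNA gene Gm20187 fell, on both sides of its TSS on chromosome 12. The one 28.9 kb from it stood at 1.83 and 2.57 CPM under hairpins I and II, against 7.08 and 7.53 CPM in controls 1 and 2 (log2 fold change −1.78 with an SE of 0.25, adjusted p = 0.0131 by edgeR). Near 5430403N17Rik, also noncoding, 5 of 9 peaks fell and 1 rose. Its most open peak, 82.1 kb upstream, stood at 8.12 and 17.6 CPM under hairpins I and II, against 35.5 and 34.2 CPM in controls 1 and 2 (log2 fold change −1.48 with an SE of 0.33, adjusted p = 0.0274 by edgeR). The rising one, 37.5 kb upstream, stood at 4.59 and 6.73 CPM under hairpins I and II, against 2.32 and 1.79 CPM in controls 1 and 2 (log2 fold change 1.45 with an SE of 0.30, adjusted p = 0.0244 by edgeR), with hairpin II the higher of the Hira libraries. With the controls as 1 sample under edgeR's newer estimate, this rise was lost (adjusted p = 0.067). So were the falls 15.3, 68.1 and 97.1 kb upstream (0.082, 0.054 and 0.063). Near Fgg, the gene of the gamma chain of fibrinogen, 4 of 5 peaks fell. The strongest loss in CPM there, 18.5 kb upstream, stood at 0.917 and 1.82 CPM under hairpins I and II, against 5.93 and 6.40 CPM in controls 1 and 2 (log2 fold change −2.22 with an SE of 0.34, adjusted p = 0.0141 by edgeR).

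**Figure D5:**
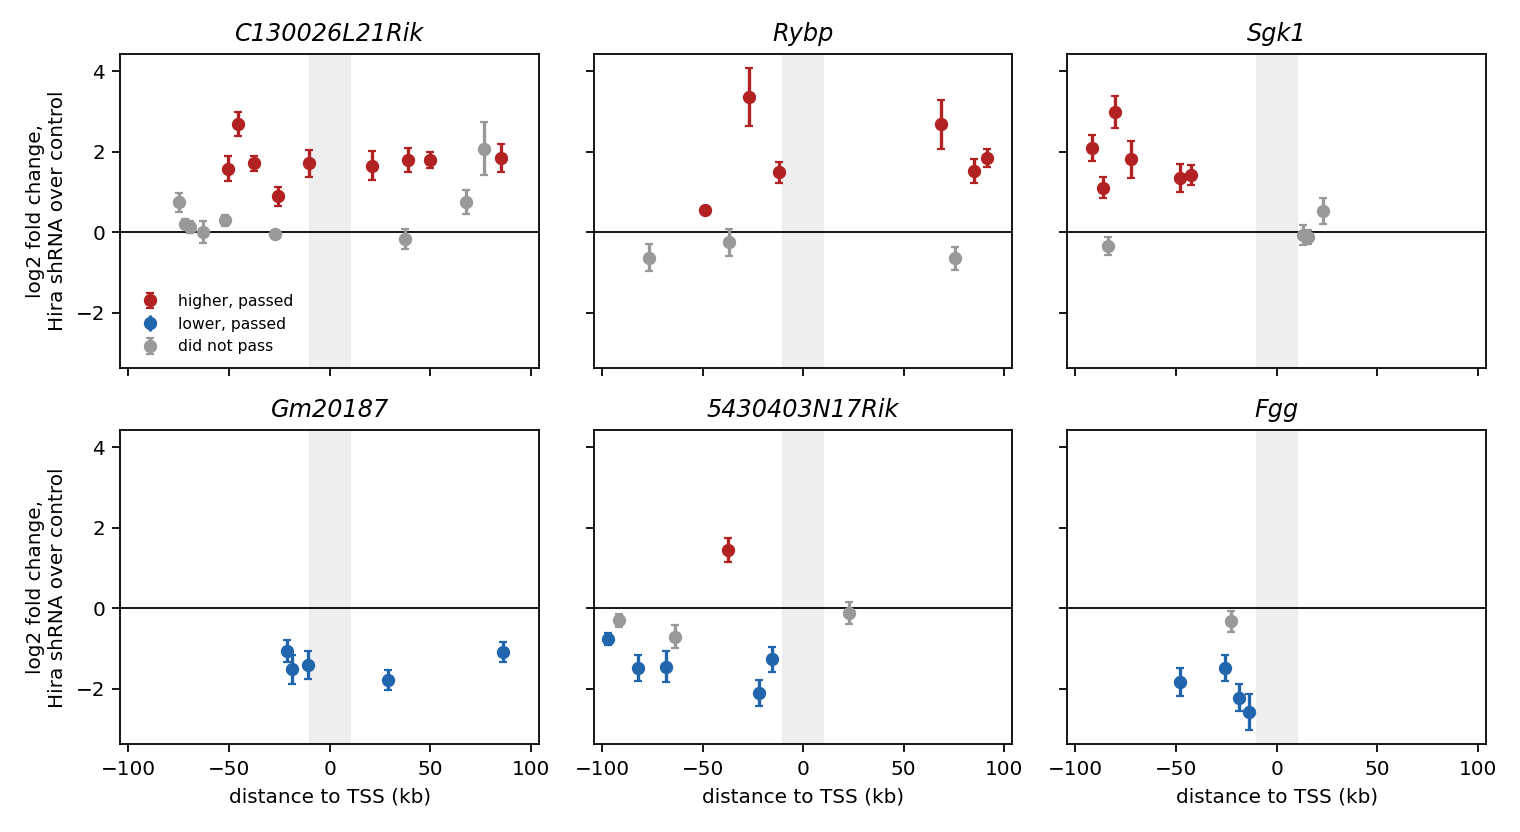
Log2 fold change of Hira shRNA over control (y axis; bars are ± 1 SE) for every distal intergenic peak of 6 genes, by distance to the TSS (x axis, kb; negative is upstream; the grey band is the window within 10 kb, which the class leaves out). Red points passed upward, blue points downward and grey points did not pass; C130026L21Rik has 9 red and 0 blue points, Gm20187 0 red and 5 blue.

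Called peaks that were neighbours shared a direction more often when they lay closer together. Among neighbouring pairs of the class under 2 kb apart with both called, 71 of 94 had the same direction (75.5%). The share was 70.7% at 2 to 10 kb (203 of 287), 67.6% at 10 to 50 kb (223 of 330) and 56.9% at 50 kb to 1 Mb (218 of 383). Since 60.1% of called peaks in the class were higher, pairs drawn without regard to position would also often share a direction. The share for such pairs was not worked out. Close peaks can belong to 1 element and are not independent of each other. Promoter peaks of the nearest gene were seldom called, and so were promoter peaks at large (4.72% of 7588 higher, 2.27% lower). Of 2207 rising peaks, 793 had a promoter peak for the same gene in the table, of which 67 were higher and 14 lower. Of 1464 falling peaks 481 had one, with 20 higher and 12 lower. For peaks that did not pass the numbers were 3390, 227 and 83. Promoter peaks were thus called higher beside 8.45% of rising, 4.16% of falling and 6.70% of other distal peaks. They were called lower beside 1.77%, 2.49% and 2.45% of the same groups. No test was made, and several distal peaks can share 1 promoter.

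The label intergenic rests on the curated transcripts behind the deposited annotation. In the RefSeq table of GRCm38.p6, the centre of 2788 peaks of the class (20.8%) lay inside an annotated gene, protein-coding for 678 of them. A RefSeq start lay inside 236 peaks. These starts made 240 pairs of peak and gene, 222 with a long noncoding RNA gene and 18 with a protein-coding one, and 202 of the 240 had predicted transcripts only. Of the 236 peaks 45 rose and 18 fell (19.1% and 7.63%), against 16.4% and 11.0% of the 13124 tested peaks that overlap no RefSeq promoter window. Among the peaks named here, those near Nrarp and Zfp239 overlapped such a window. Peaks holding a start were more open than the class as a whole, with medians of 12.9 and 10.9 CPM under hairpins I and II, against 10.5 and 10.3 CPM in controls 1 and 2. Over the whole class the medians were 5.84 and 5.13 CPM, against 4.95 and 4.93 CPM.

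Over the 156 promoter windows inside these peaks, the E-box letters were found in 8 of 29 windows in higher peaks, 2 of 12 in lower peaks and 22 of 115 in the others, and in 14.2% of all 32817 mouse promoter windows. AP-1 letters were found in 7 of 29, 0 of 12 and 11 of 115, against 7.81% of all windows. TEAD letters were found in 7, 3 and 24 windows of the same groups (14.7% of all windows) and RUNX letters in 8, 3 and 19 (16.8% of all). SOX letters were found in 2 of 29 windows in higher peaks, 6 of 12 in lower peaks and 36 of 115 in the others, against 18.7% of all windows. No test was made on these few windows. They lie in peaks outside annotated CpG islands, mostly at starts of long noncoding RNAs, while the set of all promoter windows was not limited in this way. The 2 sets are thus not like for like.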

How the data were processed

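Accessibility in melb-a cells was measured by ATAC-seq in 1 library for each of 2 Hira hairpins and 2 control hairpins. Named without a role in the submitters' processing notes are mm10, edgeR 3.38.4, MACS2 2.2.9.1, Picard, Bowtie2 and cutadapt 2.3. Removal of duplicates or mitochondrial reads, and any shift of reads for the transposase, are not given in the sources used here.

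The deposited table holds 1 peak set with annotation, distance to the nearest TSS and tags per library. The authors deposited the tags as estimated counts in steps of 0.5, which were rounded to whole numbers before testing. The authors also deposited log2 fold changes, a likelihood ratio score per peak and p-values, used only where their table is named; their calls fit a cut at adjusted p 0.01 and 2-fold. Their scaling was recovered by least squares from 46005 peaks (residual SD 0.0142 log2). The columns name knockouts where the labels give knockdowns; the Hira columns were matched by the numeral of the hairpin.

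All 70436 peaks were fitted with edgeR 4.0.16 (R 4.3.3): TMM factors, filterByExpr, quasi-likelihood test, two-sided Benjamini-Hochberg adjusted p under 0.05 over all peaks. This left 13405 of the 13406 distal intergenic peaks. Each SE is the size of the log2 fold change divided by √F. A prior of 2 tags was added before hairpins were divided by the summed controls. Alternatives used DESeq2 1.42.0 and limma 3.58.1. Peak width is end minus start. RefSeq coordinates were used because 95.3% of 6034 promoter peaks had the same TSS within 2 bases.

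Named genes were the 10 largest rises and falls, and up to 2 per list and direction with the lowest p. Added to these were the 5 highest control levels, the 5 genes with most peaks, and the 3 with most rises and with most falls. The largest changes were taken among called peaks at or above the median level with both Hira libraries beyond both controls. Ties in the number of rises or falls went to the larger share of a gene's peaks. Predicted, small RNA and pseudogenes were left out of the largest changes. Genes named only for a count of their peaks, and Tyrp1, Mitf, Snai1, Id3 and Lif, were chosen after their values were seen. The class, the lists and the rules were chosen with earlier results of these data known. Some genes that these rules select are not reported here. Figures were drawn with matplotlib 3.10.9.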

Additional observations from a re-analysis of the deposited data

How the results depend on the processing

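With the controls counted as 1 sample, edgeR's quasi-likelihood test called 0 higher and 0 lower distal intergenic peaks (3229 at an unadjusted p under 0.05), its newer estimate 1297 and 752, and its likelihood ratio test 1140 and 616. The newer estimate and the likelihood ratio test on 1 control sample were added after seeing the data. At an adjusted p under 0.01 with at least a 2-fold change the quasi-likelihood test also called 0 and 0, since its smallest adjusted p was 0.0125. The authors' scaling gave 2607 lower calls and a median log2 fold change of −0.22, and DESeq2 942 lower calls. Leaving out 1 library moved the higher calls from 0 to 4658 and the lower calls from 0 to 3692: 0 without either control, 3073 and 2506 without hairpin I, and 4658 and 3692 without hairpin II. The untested count past 2-fold under both hairpins was 1218 higher and 739 lower without control 1, and 1226 and 723 without control 2. With a hairpin left out only the other is counted, giving 1300 and 1046 for hairpin II alone and 2182 and 1768 for hairpin I alone. The difference in the share of tags ranged from 0.281 to 0.800 percentage points with 1 library left out. The higher count stayed within 1.5 times under the authors' scaling (1724), DESeq2 (1703), limma-voom (2384), cyclic loess (2335), total tags (2105), no filter (2209), edgeR's newer estimate (2590) and likelihood ratio test (2833) with 4 libraries, and with repeats kept in (2870). The replicate block by column number called 2261 higher and 1655 lower peaks; deviations of same-numbered libraries had r = −0.006 across peaks, so the numbers do not pair the samples. Cyclic loess was not run for the 2-fold count. Among the named peaks, the sign turned round under the authors' scaling at Olfr1423 (−0.0122), Parp16 (−0.0944) and Zfp239 (−0.25). Zfp239 also turned round with total tags (−0.0200), cyclic loess (−0.0058), DESeq2 (−0.0026), limma-voom (−0.0082), without control 1 (−0.0022) and without hairpin II (−0.0441, against 0.0544 without hairpin I). Of 94 named or sequenced peaks, 17 lost their call under the newer estimate with 1 control sample, 14 in DESeq2's Wald test and 9 under the authors' scaling. At 45 tags in the median peak, hairpin II limits what can be seen.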

Other observations

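Over chromosomes, the share of distal intergenic peaks called ran from 19.4% on the X chromosome (20 higher and 22 lower of 217) to 32.9% on chromosome 16 (103 and 66 of 513). Higher calls outnumbered lower ones on every chromosome but 18 and X. On chromosome 8 155 of 756 peaks were higher and 70 lower, on chromosome 17 109 of 622 and 51. On chromosome 18 the numbers were 51 and 52 of 426. The chromosomes were not tested against each other, and neighbouring peaks are not independent.

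Peaks of the same distance window in annotated repeats or CpG islands, which the class leaves out, numbered 3889, of which 663 were higher and 470 lower. Their shares, 17.1% and 12.1%, stood beside 16.5% and 10.9% in the class, and their median level was 4.89 and 4.05 CPM under hairpins I and II, against 3.92 and 3.89 CPM in controls 1 and 2.

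Several genes named for 1 group had a peak of each direction, among them Kit, Mycn, Dusp4, Ccnd1, Twist2 and Fgfr1. At Twist2, a mesenchymal transcription factor gene, the peak 73.6 kb from the TSS stood at 10.6 and 7.98 CPM under hairpins I and II, against 3.64 and 4.11 CPM in controls 1 and 2 (log2 fold change 1.27, edgeR adjusted p = 0.0184). The Twist2 peak 97.0 kb upstream stood at 1.19 and 1.37 CPM under hairpins I and II, against 3.21 and 3.3 CPM in controls 1 and 2 (−1.33, adjusted p = 0.0203), a call lost with the controls as 1 sample under the newer estimate (0.072) and in DESeq2's Wald test (0.142).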
